A study of Mus musculus with 10 samples.

Results

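The circadian clock genes examined here were Arntl, Clock, Per1, Per2, Per3, Cry1, Cry2, Nr1d1, Nr1d2 and Dbp, chosen by name as the core of the liver clock and its best known output factor. All 10 had a row in the deposited table of 24016 transcripts, and each had only 1 row. Liver RNA depleted of ribosomal RNA was sequenced from 10 male C57BL/6 mice of 8 to 12 weeks, in 2 groups of 5. AdVEGF mice had received, by tail vein, a serotype 5 adenovirus carrying VEGF-A165 behind the CMV promoter, and AdCMV mice the same kind of vector with that promoter and no transgene, so that every mouse carried adenovirus. Livers were perfused with PBS and taken on day 6. The hour of the day at which each mouse was killed is not given in the sources used here. Whole liver was sequenced, so fewer cells of a type and less RNA per cell cannot be told apart.

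The clock is a feedback loop of transcription. ARNTL (also called BMAL1) and CLOCK bind E-boxes as a pair and activate the Per, Cry, Nr1d and Dbp genes; PER and CRY proteins then block that pair. NR1D1 and NR1D2 (REV-ERB receptors) repress Arntl, while ROR receptors activate it through the same elements. In rodent liver the Arntl mRNA peaks near the opposite time of day to Dbp and the Per mRNAs, and DBP itself drives many liver genes through D-boxes.

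Promoter letters of these genes are shown because the elements of the loop can be read in them. The RefSeq promoter table (GRCm38.p6) held 13 windows, each of 250 bases before to 50 after a transcription start, for 9 of the 10 genes; Per2 had no entry. Motifs were searched on both strands, and no 2 of the matches described overlapped. The D-box TTATGTAA, read on the other strand as TTACATAA, was found in the window of Per3 only among the clock genes, at 2 places, against 0.938% of all 32851 windows with at least 1 match. The 250 bases before the start of Per3, at chr4:151044666-151044915 on the minus strand, are printed 5′ to 3′ with both D-boxes in capitals:
Per3: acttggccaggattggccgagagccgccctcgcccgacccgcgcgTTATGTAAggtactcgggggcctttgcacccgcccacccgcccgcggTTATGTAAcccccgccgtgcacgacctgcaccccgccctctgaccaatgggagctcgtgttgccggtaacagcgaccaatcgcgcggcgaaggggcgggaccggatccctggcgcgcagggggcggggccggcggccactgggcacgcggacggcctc

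The palindromic E-box CACGTG was found in the windows of Per1 and Cry1, against 7.15% of all windows. Both are shown as 30 bases with the E-box in capitals, for Per1 at chr11:69098771-69098800 on the plus strand and for Cry1 at chr10:85185097-85185126 on the minus strand. The ROR half-site AGGTCA, read on the other strand as TGACCT and known as the core of the element that ROR and REV-ERB receptors share, was found in windows of Arntl, Clock, Per1 and Nr1d2, against 16.3% of all windows. That of Arntl, at chr7:113207530-113207559 on the plus strand, is shown in the same way. The half-site begins at base 32 counted from, and including, the second start of Arntl. The variant E-box AACGTG, read on the other strand as CACGTT, was found in windows of Cry1, Cry2 and Nr1d1, against 4.68% of all windows. The window of Dbp held none of these letters. These matches describe the letters only.
Per1: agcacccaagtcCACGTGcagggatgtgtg
Cry1: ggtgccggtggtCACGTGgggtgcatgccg
Arntl: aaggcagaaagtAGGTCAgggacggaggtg

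By the steps of their values the libraries held 5758960 to 13493991 mapped tags in the AdCMV group and 5596563 to 8133948 in the AdVEGF group. Values were deposited as RPKM, reads scaled to transcript length and to the library's mapped tags, which allows levels to be compared between genes. Transcripts of the Mup genes, the major urinary proteins of male liver, took 18.0 to 50.5% of the reads counted in AdCMV mice and 7.84 to 28.6% in AdVEGF mice, and AdCMV replicate 3 was the mouse at 18.0%. The log2 fold change of each clock gene, with many other results, is therefore also given after median-ratio scaling. This divides a library by the median ratio of its genes to their geometric mean over all mice. The factor was 1.22 in AdCMV replicate 3 and 0.660 to 0.991 in the other AdCMV mice. A result printed for the deposited values only may differ after scaling. Over the 13933 genes tested, the log2 fold changes had a median of 0.38 on the deposited values and of -0.00443 after scaling. Vegfa lay at 13.8 to 23.2 RPKM in AdCMV and 28.3 to 39.4 RPKM in AdVEGF mice, with no overlap on the deposited values. Its log2 fold change was 0.82 (adjusted p = 0.00487, limma), short of the fold of 1 used for calls below. Whether this row counts the vector's transcript was not tested. Hepatocyte markers summed to 20700 to 25415 RPKM in AdCMV and 37088 to 46161 RPKM in AdVEGF mice on the deposited values (3 of 9 called higher), but after scaling the sums overlapped (16956 to 32061 and 31694 to 39922) and 1 of 9 was called higher. Endothelial markers summed to 35.7 to 72.9 and 305 to 377 RPKM deposited, and 10 of 10 were called higher on both scales. On the deposited values Kupffer cell markers had 3 of 9 called higher, stellate cell markers 7 of 8 called higher, T and NK cell markers 5 of 8 called lower (3 without AdCMV replicate 3), and erythroid markers 0 of 3 called (limma; 0 at an unadjusted p under 0.05 and 0 by voom). After scaling, 2 Kupffer cell and 7 stellate cell markers were called higher, 6 T and NK cell markers lower, and 0 erythroid markers in either direction (limma, with 1 lower at an unadjusted p under 0.05). No marker was at 0 in every mouse. The part of these differences in the clock genes' values was not tested.

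Per3 and Dbp, 2 of the 10 clock genes, rose in AdVEGF livers on the deposited values, and none fell. A gene was called where its log2 fold change went beyond 1 in either direction at a Benjamini-Hochberg adjusted p under 0.05 in limma over all genes tested. By that rule 13% of all genes were called higher and 1.54% lower, and the 2 calls among 10 clock genes are near that background. Neither call held after scaling, where 0 of the 10 were called in either direction against 7.77% of all genes called higher and 3.14% lower; at an unadjusted p under 0.05, 3 were then higher and 3 lower, and voom on the recovered reads with the same scaling called 1. The members' median log2 fold change was 0.82 deposited and 0.45 scaled. In no clock gene did the groups separate completely on either scale, which for 10 genes is near the background. Of all genes, 14.3% had every AdVEGF mouse above every AdCMV mouse and 1.29% below on the deposited values, and 10.6% above and 7.16% below after scaling.

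The count depended on AdCMV replicate 3. Without that mouse, 4 clock genes (Dbp, Per3, Per1 and Nr1d1) were called higher and 0 lower on the deposited values, in a fit that called 17% of all genes higher and 1.28% lower. After scaling without it, Dbp, Per3 and Per1 were called higher and Arntl lower, against 7.85% and 3.04% of all genes. Without AdCMV replicate 2, AdCMV replicate 4 or AdVEGF replicate 3, 0 clock genes were called on the deposited values, and 1 was without AdCMV replicate 1 (Per3) or AdVEGF replicate 4 (Nr1d1). AdCMV replicate 3 is singled out below with its values known, as in several clock genes it lay among the AdVEGF mice. Leaving it out widens the difference in those genes, so a call gained that way describes this mouse and adds no support.

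**Figure D1:**
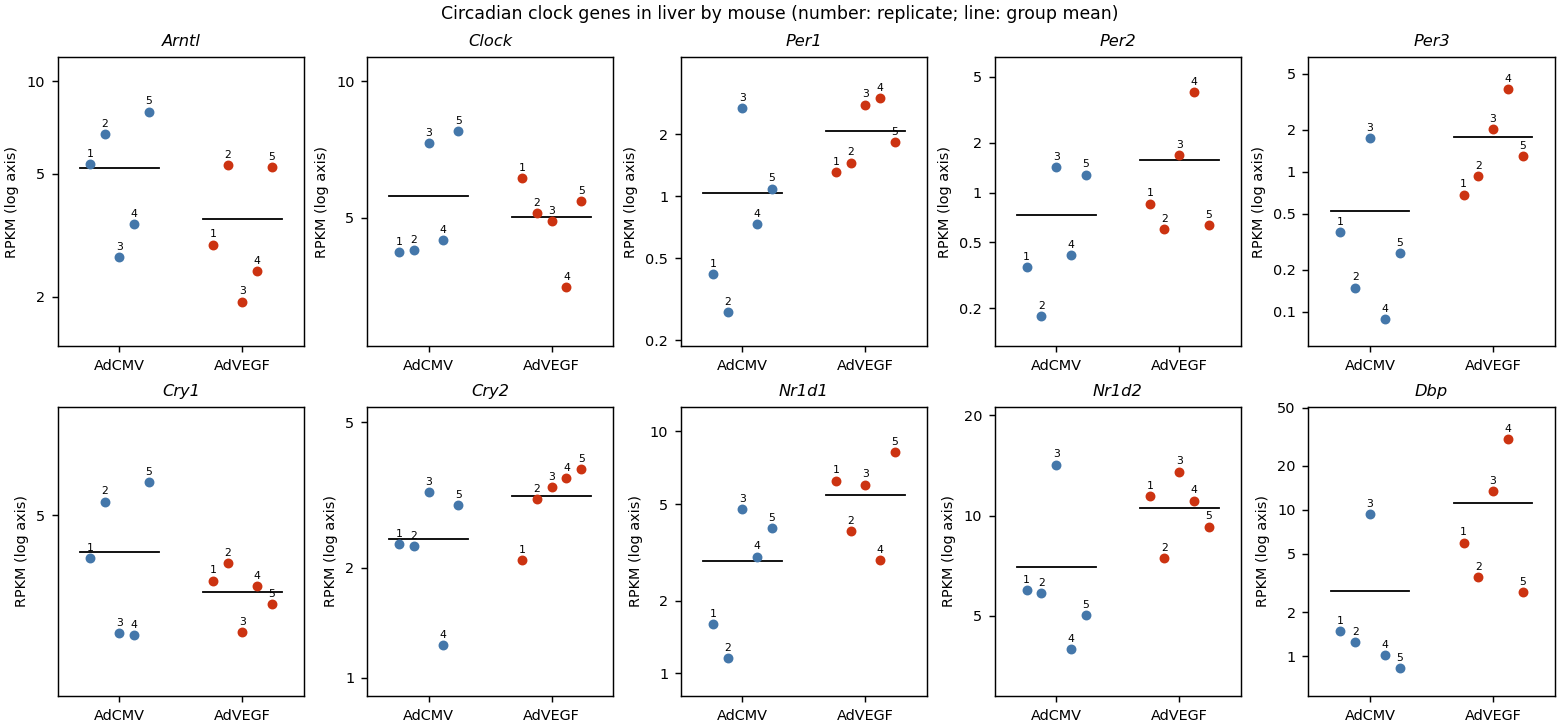
RPKM of the 10 clock genes in each mouse (log axis), with AdCMV in blue, AdVEGF in red, the replicate number above each point and a line at the group's mean. In the panels of Per3 and Dbp, AdCMV replicate 3 sits at 1.74 and 9.34 RPKM, among the AdVEGF mice, and the other 4 AdCMV mice sit below all AdVEGF mice.

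Among the activators, Arntl, whose product is the obligate partner of CLOCK, was at chr7:120350979-120457640 in mm9 on the plus strand. Its level was 5.37, 6.74, 2.69, 3.43 and 7.96 RPKM in AdCMV replicates 1 to 5 and 2.95, 5.34, 1.93, 2.42 and 5.27 RPKM in AdVEGF replicates 1 to 5. On the deposited values Arntl was thus low in mice of both groups. These were AdCMV replicates 3 and 4 and AdVEGF replicates 1, 3 and 4. On log2 scaled values only AdCMV replicate 3 was far below the AdCMV mean (-1.30). There AdCMV replicate 4 lay near that mean (-0.0994), so its low deposited value did not hold after scaling. Only 2 AdVEGF mice were below every AdCMV mouse on either scale. The means were 5.24 ± 2.20 and 3.58 ± 1.62 RPKM (SD, n = 5 a group). The log2 fold change of Arntl was -0.54 (95% interval -1.24 to 0.16, adjusted p = 0.236, limma), and -0.93 after scaling (-1.79 to -0.07, adjusted p = 0.110). Without AdCMV replicate 3 it was -0.75 (adjusted p = 0.0743), and -1.26 after scaling (adjusted p = 0.0183), which passed the rule.

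Clock (chr5:76638893-76733573, minus strand) encodes the other part of the activating pair. It was between 4.20 and 7.76 RPKM in AdCMV mice (median 4.48) and between 3.53 and 6.13 RPKM in AdVEGF mice (median 5.13), so that the groups lay over each other. Its log2 fold change of -0.12 (-0.62 to 0.38, adjusted p = 0.728) turned in sign to 0.0104 without AdCMV replicate 5. After scaling it was -0.51 (-0.90 to -0.13, adjusted p = 0.0563), and 4 of 5 AdVEGF mice were then below every AdCMV mouse.

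The Per genes encode PERIOD proteins, which carry the cryptochromes into the repressor complex. Per1 (chr11:68913660-68923459, plus strand) was at 0.418, 0.273, 2.69, 0.735 and 1.09 RPKM in AdCMV replicates 1 to 5 and at 1.31, 1.46, 2.79, 3.01 and 1.83 RPKM in AdVEGF replicates 1 to 5. All AdVEGF mice were above 4 of the AdCMV mice, and AdCMV replicate 3 was among the AdVEGF values. The log2 fold change of Per1 was 1.23 (0.29 to 2.17, adjusted p = 0.0541), or 0.88 after scaling (0.00 to 1.75, adjusted p = 0.138). Setting AdCMV replicate 3 aside gave 1.65 (adjusted p = 0.00369), or 1.18 after scaling (adjusted p = 0.0337).

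Per2 (chr1:93312559-93355905, minus strand) was at 0.356, 0.179, 1.42, 0.420 and 1.29 RPKM in the AdCMV mice and at 0.858, 0.602, 1.69, 4.02 and 0.639 RPKM in the AdVEGF mice, in the same order. Here AdCMV replicates 3 and 5 lay above 3 of the AdVEGF mice, and AdVEGF replicate 4 stood highest. Its log2 fold change of 0.94 (-0.18 to 2.07, adjusted p = 0.199) and of 0.61 after scaling (-0.50 to 1.72, adjusted p = 0.427) did not pass, and neither did 1.24 without AdCMV replicate 3 (adjusted p = 0.0824).

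Per3 (chr4:150377764-150418774 in mm9, minus strand), the gene with the D-boxes printed above, was at 0.370, 0.149, 1.74, 0.0890 and 0.262 RPKM in the AdCMV mice and at 0.685, 0.924, 2.00, 3.89 and 1.29 RPKM in the AdVEGF mice. In 4 AdCMV mice it rested on 5 to 16 reads, against 82 in AdCMV replicate 3 and 23 to 189 in AdVEGF mice. The means were 0.522 ± 0.690 and 1.76 ± 1.29 RPKM. Per3 rose by a log2 fold change of 1.86 (0.69 to 3.04, adjusted p = 0.0229). After scaling the value was 1.57 (0.41 to 2.73, adjusted p = 0.0518). Without AdCMV replicate 3 it was 2.39 (adjusted p = 0.00148) and 1.99 after scaling (adjusted p = 0.00906), both of which passed. The deposited call was lost without AdCMV replicate 2 or 4 and without AdVEGF replicate 3 or 4.

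The cryptochromes showed smaller differences. Cry1 (chr10:84594445-84647799, minus strand) was at 4.05, 5.36, 2.79, 2.76 and 5.90 RPKM in AdCMV replicates 1 to 5 and within 2.80 to 3.95 RPKM in all AdVEGF mice. Its deposited AdVEGF values fell inside the AdCMV range. After scaling they were at 2.25 to 3.37, with AdCMV replicate 3 at 2.29 and the other AdCMV mice at 4.18 to 6.70. The log2 fold change of Cry1 was -0.22 (-0.74 to 0.30, adjusted p = 0.519) and -0.61 after scaling (-1.16 to -0.07, adjusted p = 0.0983); without AdCMV replicate 3 and after scaling it was -0.85 (adjusted p = 0.00462), short of the fold the rule asks for.

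Cry2 (chr2:92243804-92274226, minus strand) was at 1.22 to 3.22 RPKM in AdCMV mice (median 2.32) and at 2.10 to 3.73 RPKM in AdVEGF mice (median 3.32). On the deposited values 3 of the AdVEGF mice were above every AdCMV mouse, and after scaling 1 was. Its log2 fold change was 0.42 (-0.15 to 0.98, adjusted p = 0.256), and 0.03 after scaling (-0.40 to 0.46, adjusted p = 0.932). The transcript D930015M05Rik lies within the span of Cry2 on the opposite strand, at no more than 1.06 RPKM in any mouse.

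**Figure D2:**
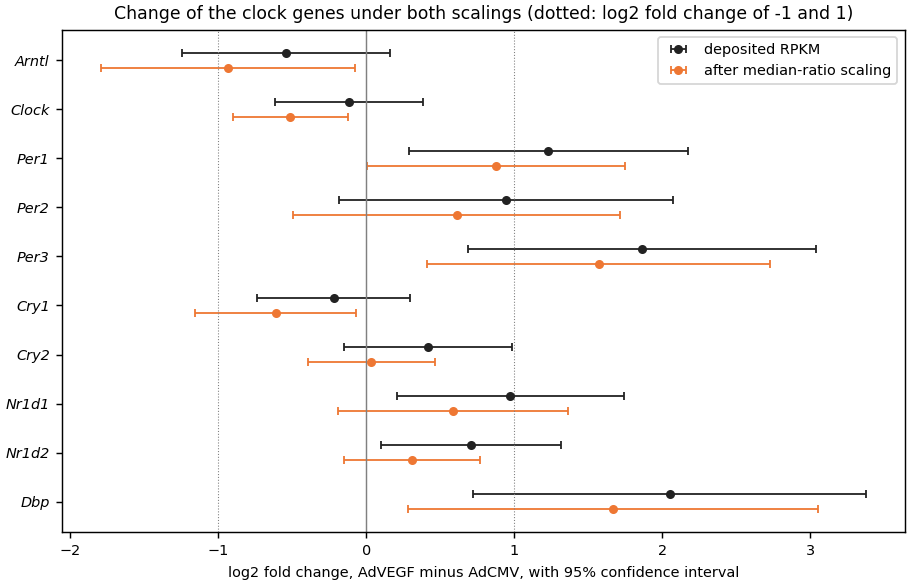
Log2 fold change of each clock gene, AdVEGF minus AdCMV, as a point with its 95% confidence interval, for the deposited RPKM (black) and after median-ratio scaling (orange). The scaled points lie to the left of the deposited ones in every gene, and the scaled intervals of Per3 and Dbp start at 0.41 and 0.28.

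The REV-ERB receptors close the second arm of the loop by repressing Arntl. Nr1d1 (chr11:98629246-98636691, minus strand) was at 1.60, 1.16, 4.79, 3.04 and 3.97 RPKM in AdCMV replicates 1 to 5 and at 6.27, 3.86, 6.03, 2.95 and 8.20 RPKM in AdVEGF replicates 1 to 5. Above every AdCMV mouse were 3 of the AdVEGF mice, and AdVEGF replicate 4, the mouse with the highest Dbp, had the lowest Nr1d1 of its group. The log2 fold change of Nr1d1 was 0.97 (0.21 to 1.74, adjusted p = 0.0593), and 0.59 after scaling (-0.19 to 1.36, adjusted p = 0.269). It was called on the deposited values in 3 of the 10 fits that left out a mouse, without AdCMV replicate 3 (1.19, adjusted p = 0.0174), AdCMV replicate 5 (1.13, adjusted p = 0.0387) or AdVEGF replicate 4 (1.17, adjusted p = 0.0314).

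Nr1d2 (chr14:19036570-19071620, minus strand) was at 5.97, 5.86, 14.2, 3.99 and 5.03 RPKM in the AdCMV mice and at 11.5, 7.44, 13.5, 11.1 and 9.27 RPKM in the AdVEGF mice. On these deposited values all AdVEGF mice were above 4 of the AdCMV mice and below AdCMV replicate 3. After scaling, AdVEGF replicate 2, at 6.36, was below AdCMV replicates 1 (7.65) and 2 (7.32). For Nr1d2 the log2 fold change was 0.71 (0.10 to 1.31, adjusted p = 0.0828), and 0.31 after scaling (-0.15 to 0.77, adjusted p = 0.328). Without AdCMV replicate 3 it was 1.00 (adjusted p = 0.00235), just short of the fold the rule asks for, and 0.48 after scaling (adjusted p = 0.0810).

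Dbp (chr7:52960617-52965573, plus strand), a PAR bZIP factor and direct target of the activating pair, was at 1.49, 1.24, 9.34, 1.02 and 0.831 RPKM in AdCMV replicates 1 to 5. It was at 5.96, 3.46, 13.5, 30.3 and 2.76 RPKM in AdVEGF replicates 1 to 5. The AdVEGF mice all lay above 4 of the AdCMV mice, while AdCMV replicate 3 lay above 3 of the AdVEGF mice. The means were 2.78 ± 3.67 and 11.2 ± 11.5 RPKM, resting on 8 to 123 reads and 31 to 412 reads. Dbp rose by a log2 fold change of 2.05 (0.72 to 3.38, adjusted p = 0.0257). After scaling the value was 1.67 (0.28 to 3.05, adjusted p = 0.0791).

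Setting AdCMV replicate 3 aside gave 2.64 for Dbp (95% interval 1.49 to 3.79), and 2.14 after scaling (adjusted p = 0.0196), both of which passed. Leaving out AdVEGF replicate 4, the highest mouse, gave 1.55 (adjusted p = 0.0614), and leaving out both mice gave 2.14 (adjusted p = 0.000902). The call for Dbp on the deposited values was kept in only 4 of the 10 fits that left out a single mouse. The last 741 bases of the span of Dbp are shared with Sphk2 on the opposite strand, which was at 4.82 to 9.46 RPKM in AdCMV mice and at 7.39 to 19.7 RPKM in AdVEGF mice, highest in AdVEGF replicate 4. Whether the counting used strand is not given in the sources used here; without it, reads from this stretch cannot be told apart.

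By mean RPKM the order of levels in AdCMV mice was Nr1d2, Clock, Arntl, Cry1, Nr1d1, Dbp, Cry2, Per1, Per2 and Per3, from 7.01 ± 4.11 to 0.522 ± 0.690. In AdVEGF mice it was Dbp, Nr1d2, Nr1d1, Clock, Arntl, Cry1, Cry2, Per1, Per3 and Per2, from 11.2 ± 11.5 to 1.56 ± 1.44. The first place of Dbp rested on AdVEGF replicate 4: without that mouse its mean was 6.41 ± 4.90 RPKM (n = 4), below the 10.4 ± 2.65 of Nr1d2. Neighbours in each order overlapped in their values over mice.

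Mice of the same group differed more in most clock genes than in a typical gene. The SD between mice of a group, on log2 scaled RPKM with 0.1 added, was 1.24 for Dbp, 0.99 for Per3, 0.94 for Per2, 0.75 for Arntl, 0.74 for Per1 and 0.68 for Nr1d1, against a median of 0.30 over all genes tested. These 6 genes were above the 90th percentile of all genes. Cry1 (0.45), Nr1d2 (0.38) and Cry2 (0.32) were also above the median, and Clock (0.30, percentile 48.0) was just below it. Per3 rested on as few as 5 reads in a mouse, and the part of read numbers in this spread was not tested.

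On the scaled values, the mice of a group were ranked in a like or opposite order by some of these genes. There are 20 pairs of mice that share a group, and Cry1 ordered 19 of them as Arntl did, which only 0.0574% of all genes tested equalled or passed. Each such share, here and below, counts the ranked gene itself. Dbp ordered 16 of the 20 pairs opposite to Arntl (1.41% of genes as many or more), and Per1, Per2 and Nr1d2 ordered 15 each opposite to it (3.64%). Nr1d2 put 17 pairs in the order of Dbp (1.32%) and Per3 15 pairs (7.77%). Clock put 16 pairs in the order opposite to Dbp (3.51%) and Cry1 15 pairs (7.84%). Other pairs of genes were nearer to the rest of the table: Per3 ordered 13 pairs opposite to Arntl (16.5% of genes), Cry2 13 and Clock 12 pairs as Arntl did (16.9% and 28.5%), and Per1 and Per2 13 pairs each as Dbp did (23.2%). Nr1d1 ordered 10 pairs as Arntl did and 10 against it. Opposite to Dbp, Nr1d1 ordered 14 pairs (14.5%), though both are targets of the activating pair, and Cry2 ordered 11 (43.5%). The mice and libraries behind these counts are shared, so they are a description.

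Npas2, the paralog of Clock that can replace it beside ARNTL, ordered all 20 pairs as Arntl did on the scaled values. No other gene did, as the share of 0.00718% is Npas2 itself. Npas2 was also the gene with the second highest likeness to Arntl of 13932 genes (r = 0.95). Likeness was the Pearson r of log2 scaled RPKM over the 10 mice after each group's mean was taken off. Among the 5 most like were Zc3h6 (0.97), Npas2, Nfil3 (0.91) and Loxl4 (0.90), and Cry1 ranked 11 with 0.88. Zc3h6 rested on 8 to 28 reads in a mouse and Npas2 on 5 to 102. The 5 least like were Phtf1 (-0.96), Rnaseh1 (-0.95), Zdhhc13 (-0.91), Tuft1 (-0.90) and P2ry2 (-0.89), with Dbp eighth from the bottom (-0.87). Nfil3 encodes a repressor that competes with DBP at D-boxes.

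Seen from Dbp, the 5 most like genes over the same 10 mice were Afp (0.96), Plat (0.96), Arsa (0.93), Nampt (0.93) and Lysmd2 (0.91). Of these, Afp rested on 6 to 40 reads in a mouse and Lysmd2 on 6 to 30. Nampt, the enzyme of NAD salvage and a known output of the clock, ordered 19 of the 20 pairs as Dbp did on the scaled values (0.0646% of genes). Its deposited level was 18.2, 21.0, 39.8, 15.1 and 19.7 RPKM in AdCMV replicates 1 to 5 and 16.8, 16.1, 20.6, 23.9 and 10.4 RPKM in AdVEGF replicates 1 to 5. It was thus highest in AdCMV replicate 3 and AdVEGF replicate 4, the mice with the highest Dbp of their groups. The 5 least like Dbp were Glce (-0.93), Loxl4 (-0.93), Slc30a10 (-0.92), Ces3a (-0.92) and Atxn1l (-0.92).

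**Figure D3:**
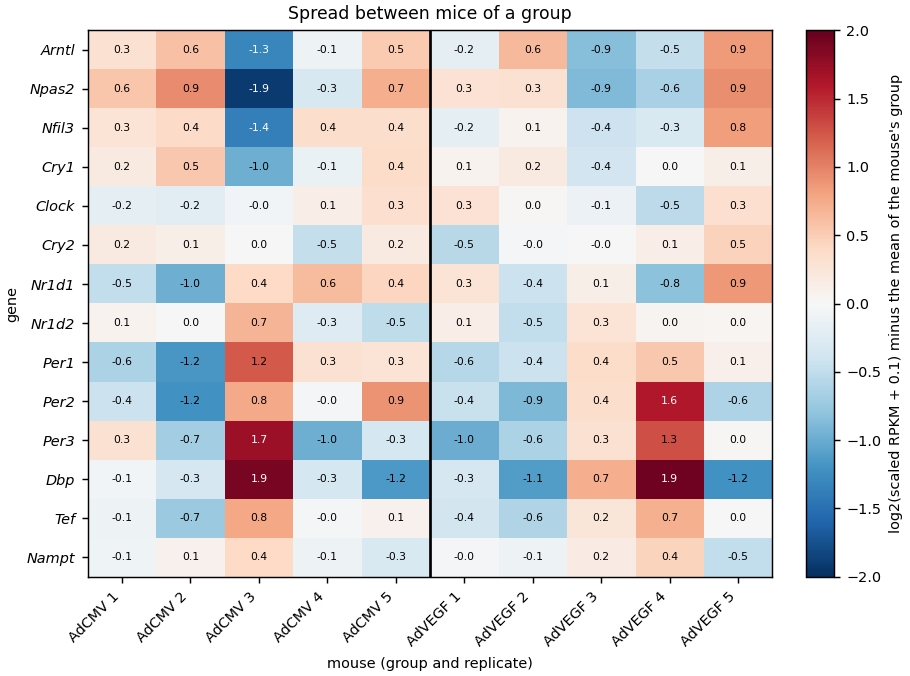
Log2 of scaled RPKM (with 0.1 added) minus the mean of the mouse's group, for the clock genes with Npas2, Nfil3, Tef and Nampt; columns are mice and red is above the group's mean. In AdCMV replicate 3, Arntl, Npas2, Nfil3 and Cry1 deviate by -1.92 to -0.97 from their group's mean and Per3 and Dbp by 1.72 and 1.89.

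A ratio of 2 genes within a mouse does not depend on how the library was scaled. Dbp over Arntl was 0.277, 0.184, 3.47, 0.296 and 0.104 in AdCMV replicates 1 to 5 and 2.02, 0.648, 6.99, 12.5 and 0.523 in AdVEGF replicates 1 to 5. All 5 AdVEGF mice were above the other 4 AdCMV mice, and 2 of 5 were above AdCMV replicate 3. The same counts held for Per3 over Arntl, which ranged from 0.0221 to 0.0689 in those 4 AdCMV mice, was 0.647 in AdCMV replicate 3 and ranged from 0.173 to 1.61 in AdVEGF mice. They held also for Tef over Nfil3, an activator and a repressor of D-boxes, which was at most 0.375 in those 4 AdCMV mice, 2.05 in AdCMV replicate 3 and 0.918 to 3.38 in AdVEGF mice. Per2 over Cry1 separated the mice less, with 3 of 5 AdVEGF mice above those 4 AdCMV mice. These ratios were chosen with the values known and carry no test.

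**Figure D4:**
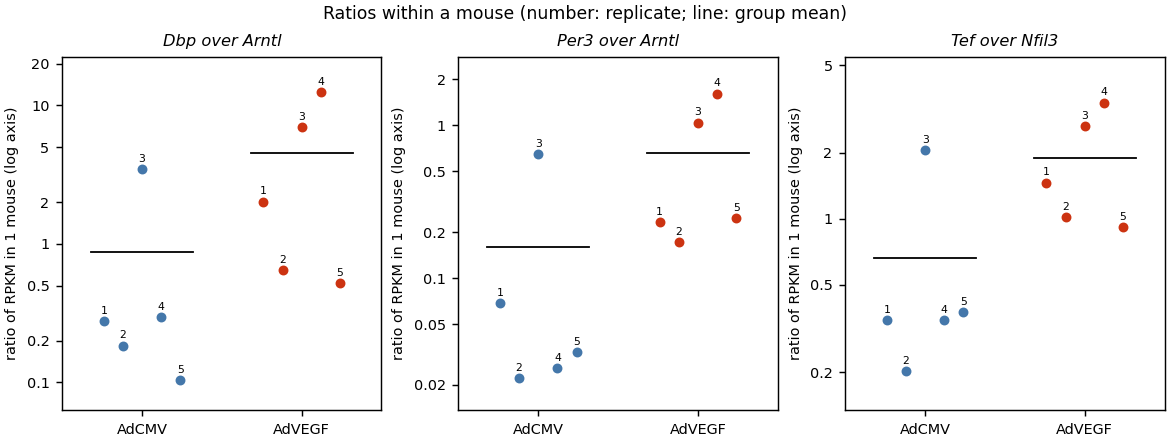
Ratio of RPKM within each mouse (log axis) for Dbp over Arntl, Per3 over Arntl and Tef over Nfil3, with the replicate number above each point and a line at the group's mean. In each panel AdCMV replicate 3 lies above 3 of the AdVEGF mice and the other AdCMV mice lie below all of them.

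Of the further activators and ROR receptors, 4 of 5 listed genes were tested (Arntl2 was not), and 0 were called on the deposited values (limma; 1 lower at an unadjusted p under 0.05, 0 by voom). With scaling, Rora, a receptor that activates Arntl, turned in sign from 0.21 to -0.15. Npas2 was at 0.275 to 1.92 RPKM in AdCMV and 0.215 to 0.858 RPKM in AdVEGF mice, with a log2 fold change of -0.94 (adjusted p = 0.157) that without AdCMV replicate 3 was -1.32 and passed (adjusted p = 0.0241). Of the further repressors, 4 were tested (Bhlhe40, Ciart, Timeless and Tipin) and 0 were called on either scale (limma; 3 and 1 higher at an unadjusted p under 0.05, 0 by voom), with a median of 0.86 deposited and 0.48 scaled. Without AdCMV replicate 3, Timeless (1.07) and Tipin (1.12) were called higher on the deposited values, in a fit that called 17% of all genes higher. After scaling without that mouse they were at 0.58 (adjusted p = 0.0445, limma) and 0.61 (adjusted p = 0.148), and 0 of the 4 were called. Ciart, a repressor of the activating pair, had no read in AdCMV replicates 2 and 4 and at most 21 reads elsewhere.

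The D-box factors other than Dbp did not move as a group. Tef, an activator like DBP, was at 3.23, 2.10, 9.43, 2.90 and 4.71 RPKM in AdCMV replicates 1 to 5 and at 7.06, 6.00, 11.6, 15.5 and 7.89 RPKM in AdVEGF replicates 1 to 5. As with Dbp, all AdVEGF mice were above 4 of the AdCMV mice. Tef rose by 1.20 on the log2 scale (adjusted p = 0.0196); after scaling the value was 0.80 (adjusted p = 0.0610), and the deposited call was lost without AdCMV replicate 2 or 4 and without AdVEGF replicate 3 or 4 (adjusted p = 0.0505 to 0.0573). Hlf, the remaining activator, had a log2 fold change of -0.54 deposited (adjusted p = 0.161) and -0.94 scaled (adjusted p = 0.0135). Nfil3 was at 9.31, 10.4, 4.60, 8.38 and 12.6 RPKM in the AdCMV mice and 4.84, 5.89, 4.40, 4.58 and 8.60 RPKM in the AdVEGF mice. Its log2 fold change was -0.64 deposited (adjusted p = 0.0883), and it fell by 1.04 after scaling (adjusted p = 0.0463), a call that was lost in 8 of the 10 scaled fits that left out a mouse.

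Among the kinases, ligases and other modifiers of clock proteins, 1 of 13 tested genes was called, Csnk1e, and it was called on both scales. Csnk1e encodes casein kinase 1 epsilon, which phosphorylates PER proteins. It was at 1.86, 1.97, 2.96, 1.20 and 2.41 RPKM in AdCMV replicates 1 to 5 and at 4.35, 7.21, 6.77, 6.14 and 4.66 RPKM in AdVEGF replicates 1 to 5. The groups did not overlap and AdCMV replicate 3 lay with its own group. Csnk1e rose by 1.47 on the log2 scale (adjusted p = 0.000395) and by 1.08 after scaling (adjusted p = 0.000262), and the call was kept in all 23 alternatives of the deposited fit and all 13 of the scaled fit. The median of the list was 0.38 deposited and -0.01 scaled, like that of all genes, and Csnk2a1, Gsk3b, Prkaa1, Btrc, Sirt1 and Parp1 turned from above 0 to below it with scaling.

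Of 16 clock-controlled output genes of liver, 0 were called higher (limma; 2 at an unadjusted p under 0.05, 0 by voom) and 2 lower on the deposited values, and 0 and 4 after scaling (0 higher at an unadjusted p under 0.05, 0 by voom). Ppp1r3c, which targets a phosphatase to glycogen, was at 19.8 to 27.9 RPKM in AdCMV mice and 3.50 to 9.73 RPKM in AdVEGF mice, with no overlap. It fell by 2.00 on the log2 scale (adjusted p = 1.21e-05) and by 2.40 after scaling (adjusted p = 5.55e-05). Elovl3, a fatty acid elongase of male liver, was at 121, 126, 42.3, 80.4 and 126 RPKM in AdCMV replicates 1 to 5 and at 70.0, 51.6, 4.87, 1.57 and 47.4 RPKM in AdVEGF replicates 1 to 5. Like Arntl, it was lowest in AdCMV replicate 3 within its group and low in AdVEGF replicates 3 and 4. Elovl3 fell by 2.43 (adjusted p = 0.0330) and by 2.83 after scaling (adjusted p = 0.0493), a call kept in 4 of the 10 fits that left out a mouse on either scale. Cyp7a1, the rate-limiting enzyme of bile acid synthesis, and Car14, a carbonic anhydrase, fell after scaling only, by 1.11 (adjusted p = 0.0474) and 1.08 (adjusted p = 0.000516). The call of Cyp7a1 was kept in 2 of the 10 scaled fits that left out a mouse, without AdCMV replicate 2 or AdVEGF replicate 1, and was lost without any of the others (adjusted p = 0.0574 to 0.107). Por, Alas1, Lpin1 and Pnpla2 turned from above 0 to below it with scaling.

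Genes that respond to temperature, a cue that sets liver clocks, were called in both directions. Cirbp and Rbm3, RNA-binding proteins of the cold response, rose by 1.29 (adjusted p = 0.00137) and 1.28 (adjusted p = 0.00398), with 0.90 (adjusted p = 0.0182) and 0.87 (adjusted p = 0.0143) after scaling, where neither reached the fold of the rule. Cirbp was at 1.95 to 5.29 RPKM in AdCMV mice and 8.08 to 10.6 RPKM in AdVEGF mice, with no overlap. The heat shock genes Hspa1a and Hspa1b fell by 1.47 (adjusted p = 0.0478) and 1.78 (adjusted p = 0.00674), and by 1.84 and 2.17 after scaling, when Hsph1 also fell, by 1.27 (adjusted p = 0.000245). Hspa8 and Dnajb1 turned from above 0 to below it with scaling. Hspa1a was no longer called without AdCMV replicate 3 (-1.31, adjusted p = 0.0756) and kept its call in 3 of the 10 fits that left out a mouse. Hspa1a and Hspa1b are near-identical copies between which reads may have been split.

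**Figure D5:**
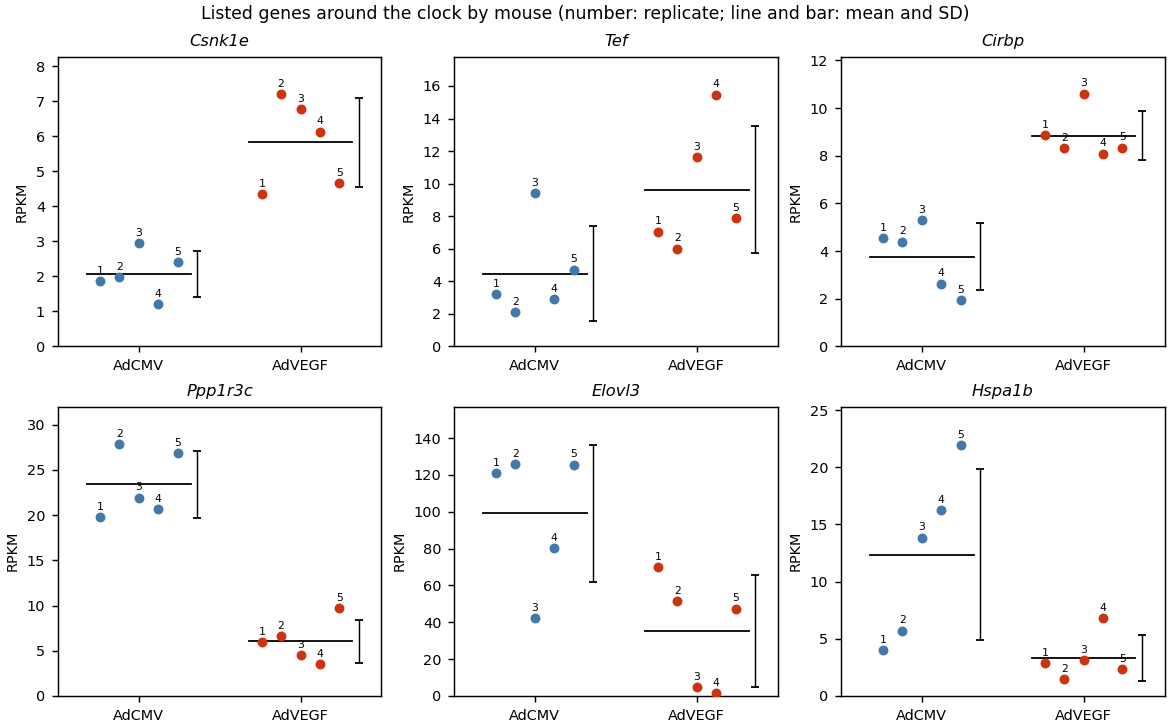
RPKM in each mouse (linear axis from 0) of 6 listed genes around the clock, with the replicate number above each point, a line at the group's mean and a bar of 1 SD to each side. Csnk1e, Cirbp and Ppp1r3c separate the groups, while in the panel of Tef AdCMV replicate 3 sits at 9.43 RPKM among the AdVEGF mice.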

How the data were processed

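Liver RNA-Seq of 5 AdVEGF and 5 AdCMV mice was analysed, grouped by sample label. The authors mapped the reads with TopHat (the submitters' notes also name HOMER and mm9) and deposited RPKM per transcript, scaled to each library's total only; their own columns of log2 fold change and FDR were not used. Reads and mapped tags were recovered from the RPKM steps; of values up to 200 reads, 100% were whole within 0.05 reads or the rounding. The 5 rows with no symbol were left out. limma (3.58.1, R 4.3.3; lmFit, eBayes with trend) was fitted to log2(RPKM + 0.1) for genes averaging above 0.5 RPKM in either group, with Benjamini-Hochberg adjustment over all 13933, and again after median-ratio scaling; a fold change on this scale understates low genes. On simulated data the fit was tested before use. Tables were made in Python 3.11.15 (numpy 2.4.6, pandas 2.3.3).

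Named genes were the 10 clock genes, listed genes that were called or turned in sign with scaling, and the 5 genes most and least like Arntl and Dbp. Results of some named genes are not reported here. Members, lists and ratios were chosen with earlier results of these data known. The labels call the samples biological replicates. Over all genes, same-numbered mice deviated with r = 0.00937 to 0.294, under 0.1 in 3 of 5 pairs, so numbers served as names. Mapped tags ranged from 5596563 to 13493991; counts of reads bound counting error only. Alternatives were other scalings, pseudocounts and filters, 1 row per symbol, voom on recovered reads, a block on replicate number and fits without each mouse in turn; leaving out AdCMV replicate 3 and AdVEGF replicate 4 together was added after seeing the data.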

Additional observations from a re-analysis of the deposited data

Results flagged for a closer look

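Within groups of 5, a value was noted where its gap to the nearest mouse, divided by the range of the group, passed Dixon's 95% critical value of 0.71. Of the 20 groups formed by the 10 clock genes, 3 passed. Chance passes about 1 in 20 groups where groups are independent and values normal. Here the genes share the same mice and RPKM was not put on a log scale, so the count cannot be set against that share. All 3 were AdCMV replicate 3. Dbp was at 9.34 RPKM in that mouse and at most 1.49 RPKM in the other AdCMV mice (0.923). Per3 was at 1.74 RPKM and at most 0.370 RPKM in the others (0.83). Nr1d2 was at 14.2 RPKM and at most 5.97 RPKM in the others (0.807). The rule was applied to the deposited values only. After scaling, Nr1d2 was at 11.7 in that mouse and 5.07 to 7.65 in the other AdCMV mice, a gap short of the critical value. Scaled Dbp (7.65 against 0.839 to 1.91) and Per3 (1.43 against 0.135 to 0.475) stayed past it. The same mouse had the lowest share of reads from Mup genes in its group (18.0%, the others 32.4 to 50.5%) and the highest median-ratio factor (1.22). The part of the Mup share in these values was not tested.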

How the results depend on the processing

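The number of clock genes called higher, 2 on the deposited values, was 0 after median-ratio scaling and with the library total taken without Mup genes, 1 after upper quartile scaling, with a pseudocount of 1, with no filter and with voom after median-ratio scaling, 4 with voom, and 0 to 4 when 1 mouse was left out. With AdCMV replicate 3 and AdVEGF replicate 4 both left out it was 4, and after scaling 2 higher and 1 lower. After scaling, 0 were called, against 1 higher with voom, 0 to 3 higher and 0 to 1 lower when 1 mouse was left out. Over all genes, 1808 higher and 214 lower became 1082 and 438 (median-ratio), 1125 and 393 (upper quartile), 1059 and 446 (without Mup genes) and 1135 and 477 (voom after scaling), and a pseudocount of 1 left 954 higher. The cause of these moves was not tested. The log2 fold change of Clock ranged from -0.21 to 0.0104 when 1 mouse was left out and was 0.109 without both mice; that of Cry2 after scaling ranged from -0.0876 (without AdCMV replicate 4; -0.0791 without AdVEGF replicate 5) to 0.172. The other 8 clock genes kept their direction in every alternative of both fits. Where leaving a mouse out gave a count, the fit pooled the spread over the remaining mice.

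With the replicate block, Dbp, Per3 and Per1 were called, 3 in all (1933 genes higher and 256 lower overall); with the replicate block and scaling 1 was called, Dbp (1081 and 475). Same-numbered mice correlated best with their own number in 3 of 5 cases, and the labels do not pair them. In the clock genes alone, some same-numbered mice deviated from their groups alike (replicate 3: Arntl by -1.30 and -0.85, Dbp by 1.89 and 0.72; replicate 5: Dbp by -1.15 and -1.21), and the scaled value of Arntl, -0.93, had an adjusted p of 0.0046 with the block, short of the fold of the rule. Depth was low in AdCMV mice for Per3 (5 to 16 reads) and Dbp (8 to 28 reads) outside replicate 3.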

Other observations

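Further lists of genes that respond to hormones and food, cues that also set the liver clock, held calls in both directions. Of 10 glucocorticoid-responsive genes, 1 was called higher and 1 lower on the deposited values, and 1 and 2 after scaling. Sgk1, a kinase induced by glucocorticoids, rose by 2.18 on the log2 scale (adjusted p = 2.39e-06) and by 1.78 after scaling, with no overlap between the groups (7.56 ± 2.41 and 33.6 ± 5.00 RPKM). The metallothionein Mt2 fell by 3.17 (adjusted p = 0.000302), and Mt1 fell after scaling only, by 1.86 (adjusted p = 0.0437), and was not called without AdCMV replicate 3 (adjusted p = 0.0683). Dusp1 was called higher on the deposited values without that mouse (1.08, adjusted p = 0.00296), but not after scaling (0.56, adjusted p = 0.0684). Tsc22d3, Zbtb16, Ddit4 and Errfi1 turned from above 0 to below it with scaling.

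Of 12 fasting-induced genes, 1 was called higher and 1 lower, Fgf21 (1.58, adjusted p = 0.0379), a hormone of fasted liver, and Cyp4a10 (-1.08, adjusted p = 0.0292), a fatty acid hydroxylase. After scaling Fgf21 was at 1.21 (adjusted p = 0.126) and Cyp4a10 was still called, while Pdk4 and Cpt1a turned to below 0. Of 10 feeding-induced genes, 0 were called higher (limma; 1 at an unadjusted p under 0.05, 0 by voom) and 2 lower, Thrsp (-1.59, adjusted p = 0.00884) and Me1 (-1.41, adjusted p = 0.00873), both lipogenic genes that were also called after scaling, where Fasn, Scd1 and Acly turned to below 0. Of 9 immediate early genes tested, Klf4, Nr4a1 and Ier2 were called higher (1.74 for Klf4 and 1.35 for Nr4a1), and Klf4 after scaling (1.39); Fos, Junb, Egr1 and Atf3 turned to below 0. Without AdCMV replicate 3, 5 of the 9 were called higher on the deposited values, in a fit that called 17% of all genes higher. After scaling without that mouse 1 was called higher, against 7.85% of all genes.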
